A study of Drosophila melanogaster with 12 samples.

Results

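The proteasome subunit genes were followed across larval salivary glands of Drosophila melanogaster at 96 hr after egg deposition (AED). Members were all genes whose symbol starts with Prosalpha, Prosbeta, Rpn or Rpt followed by a number, namely 48 of the 13825 genes with a transcript in the tables. Of these, 32 are the canonical subunits, with 14 genes of the core particle, 10 genes of the base and 8 genes of the lid, and 16 are paralogs marked by a T or an R in the symbol.

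Poly(A)-selected RNA was sequenced from 4 groups of 3 replicates each. The w1118-glands, the RasV12-glands and the lglRNAi;RasV12-glands were entire glands, whereas the group lglRNAi;RasV12-PP held only the isolated proximal parts (PP) of glands of the same genotype. All groups carried the driver BxGal4 from the mother, and fathers were w1118, w1118;;UAS-RasV12 or w1118;UAS-l(2)glRNAi;UAS-RasV12. The sources differ on the reporter Drs-GFP, which the sample labels give to the mothers of all groups and the list of crosses in the study only to those of the lglRNAi;RasV12-larvae. BxGal4 is an enhancer trap that drives expression across the secretory epithelium, RasV12 is a dominant-active Ras, and l(2)gl encodes a cell polarity protein. A sample description calls the PP a posterior part, and no PP of w1118- or RasV12-glands was sequenced, so that the position in the gland and the genotype changed together in comparisons of the PP with these groups.

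The proteasome degrades proteins that carry ubiquitin chains. Its core particle is a barrel of outer rings of alpha subunits, which gate the entry, and inner rings of beta subunits, of which Prosbeta1, Prosbeta2 and Prosbeta5 carry the caspase-like, trypsin-like and chymotrypsin-like active sites. The regulatory particle on top consists of a base, with a ring of Rpt ATPases that unfold substrates and with the ubiquitin receptors Rpn10 and Rpn13, and of a lid, in which Rpn11 removes the ubiquitin chain. Subunits are assembled into complexes of fixed composition, and in flies their genes are induced together when the proteasome is inhibited. Many subunits have a second gene copy that is known mainly from the male germline.

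The libraries held between 27584224 and 73043536 estimated counts, with the PP of replicate 2 the deepest. All 32 canonical genes and 4 of the 16 paralogs passed the filter on low counts, by which 9012 genes were tested. The 6 glue genes (Sgs) and the other 3 salivary gland markers summed to between 271800 and 434000 CPM (counts scaled to a common library size by TMM) in w1118-glands, to between 80940 and 101800 in the entire glands with RasV12 and to between 43080 and 50460 in the PP. The 6 fat body markers summed to between 40360 and 84940 CPM across w1118 replicates, 16860 and 26120 with RasV12 alone, 25150 and 33570 in entire glands of lglRNAi;RasV12, and 7681 and 8889 for the PP. Hemocyte markers summed to at most 51.8 CPM and germline markers to at most 0.174 CPM in any library. The part of the fat body markers, which moved with the groups, in the results was not tested. In these bulk samples, fewer cells of a type and less RNA per cell cannot be told apart.

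The transcript levels of the canonical subunits were compared per length. Leaving out Prosalpha1, whose reads are shared with a copy, the group means of the other 31 genes in w1118-glands lay between 57.3 TPM (a length-scaled share of transcripts) for Rpn9, a lid subunit, and 171 TPM for Prosalpha2, a subunit of the alpha ring, with a median of 93.2 TPM. Rpn9 was also the lowest and Prosalpha2 the highest of the 31 genes in each of the other 3 groups. All 31 genes lay within a factor of 2 of the group's median in each group, and the ratio of the highest to the lowest was between 2.34 and 2.99. The alpha subunits had the highest class median in every group (124, 213, 172 and 137 TPM in w1118-glands, RasV12-glands, lglRNAi;RasV12-glands and the PP). The lid had a median of 88.5, 133, 118 and 90.1 TPM in the same order.

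**Figure D1:**
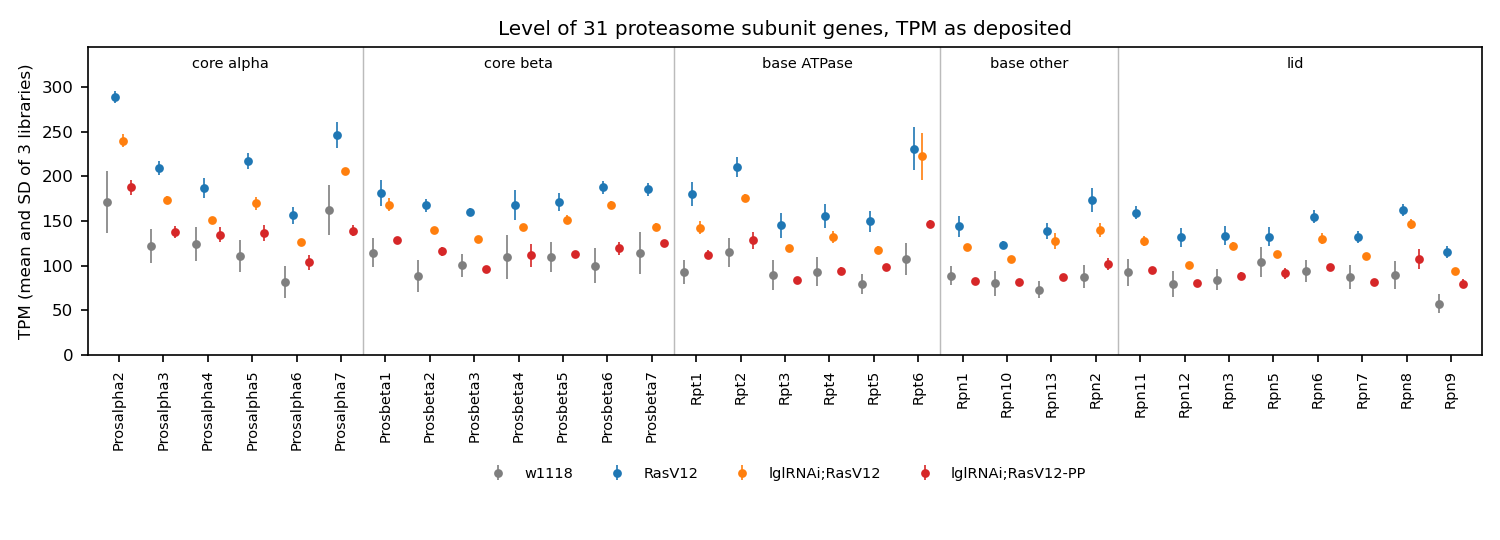
Level of 31 subunit genes (x axis, by class) in TPM as deposited (y axis); points are means of 3 libraries and bars their SD, in the 4 groups. Prosalpha2 was the highest and Rpn9 the lowest gene in each group, and the mean of all 31 genes was highest in RasV12-glands on this scale.

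On the TMM scale, which compares each gene with the bulk of the other genes, the canonical subunits were highest in RasV12-glands and lowest in the PP. The group mean was highest in RasV12-glands for 21 of the 32 genes and in w1118-glands for 10 genes, and it was lowest in the PP for 30 genes. For 30 of the 32 genes the mean fell in order from RasV12-glands over lglRNAi;RasV12-glands to the PP. The summed level of the 32 genes was 5271, 5605 and 5745 CPM in the w1118-replicates (lowest, median and highest) and 5832, 5987 and 6051 CPM in the RasV12-replicates. It was 4763, 4775 and 4874 CPM across lglRNAi;RasV12 replicates and 3913, 4097 and 4395 CPM across PP replicates. The sums of the 3 groups with RasV12 did not overlap, and the highest w1118-sum was below the lowest RasV12-sum by less than the spread between the w1118-replicates.

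**Figure D2:**
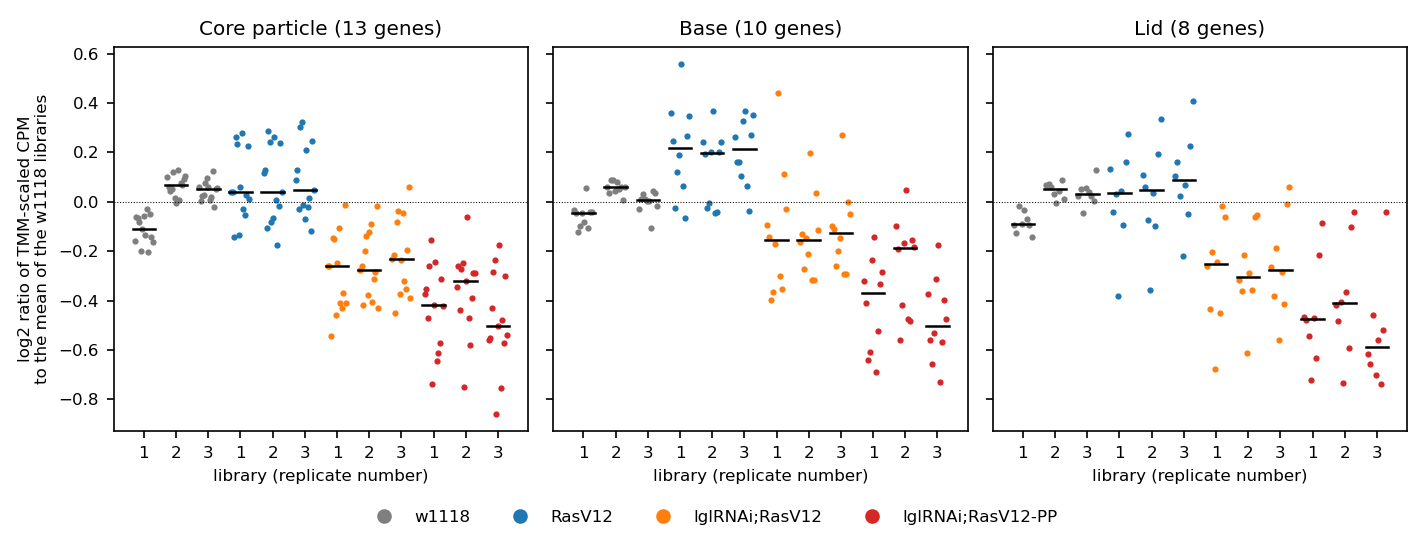
Log2 ratio of the TMM-scaled CPM to the mean of the w1118-libraries (y axis) in each of the 12 libraries (x axis), for the core particle without Prosalpha1, the base and the lid; points are genes and black lines their median. The median of the base lies above 0 in the RasV12-libraries, and the medians of all 3 classes lie below 0 in the lglRNAi;RasV12- and PP-libraries.

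The position of the w1118-glands in this order depended on the scale, and that of the other groups did not. When counts were scaled to the total of the library, the median log2 fold change of all 9012 genes against w1118-glands was 0.42, 0.42 and 0.56 for RasV12-glands, lglRNAi;RasV12-glands and the PP, and that of the canonical subunits was 0.49, 0.17 and 0.04. On deposited TPM, the medians of all genes were 0.49, 0.55 and 0.45 and those of the subunits 0.75, 0.51 and 0.15. Between 28.01% and 35.2% of the counts of a w1118-library belonged to the 15 gland and fat body markers, as did 10.8% to 13.7% in the other entire glands and 5.90% to 6.62% in the PP. With these 15 genes left out of the library total, an alternative chosen after seeing the data, the subunit medians were 0.15, -0.16 and -0.40, with the same signs as on the TMM scale. The difference between the subunit median and the median of all genes kept its sign in every alternative computed, ranging from 0.03 to 0.25 for RasV12-glands, from -0.30 to -0.04 for lglRNAi;RasV12-glands and from -0.58 to -0.29 for the PP. Another library total shifts all genes by nearly the same amount, so that this difference could not respond to it. In RasV12-glands it was 0.067 with TMM and 0.066 on library totals. Its kept sign is thus no test of the library scale. All fold changes against w1118-glands below are on the TMM scale and are to be read relative to the bulk of the genes.

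**Figure D3:**
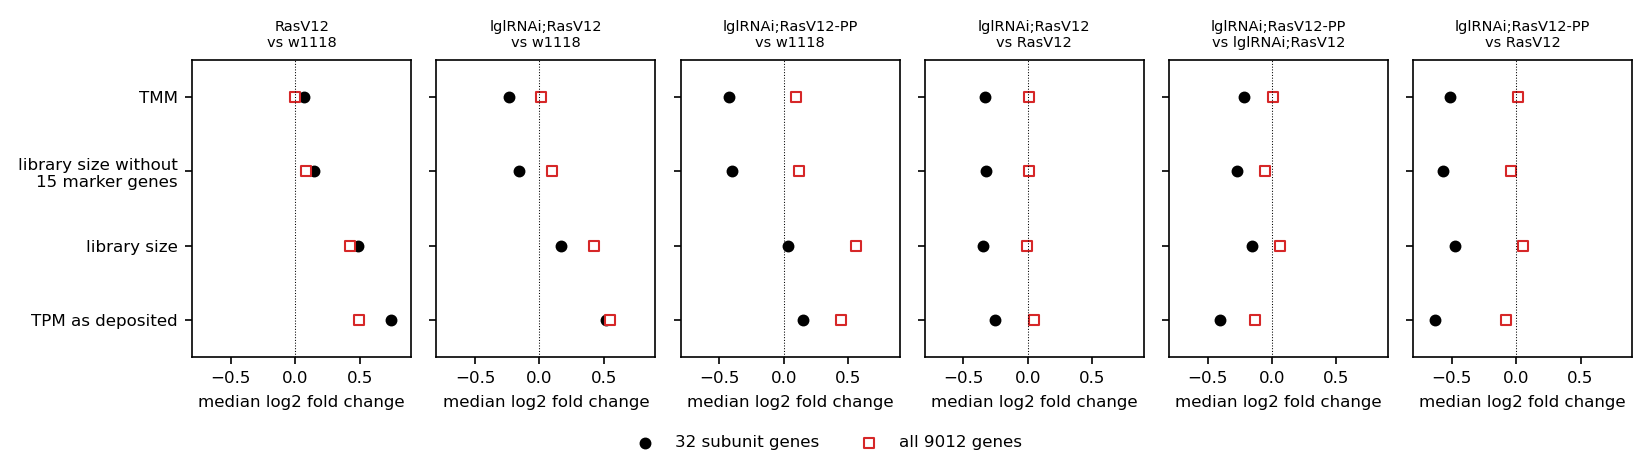
Median log2 fold change (x axis) of the 32 canonical subunit genes (black circles) and of all 9012 genes (red squares) in the 6 comparisons, under 4 ways of scaling (y axis). Against w1118 both medians move together with the scale, and in the 3 comparisons on the right the subunit median stays below 0.

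Whether RasV12 alone changed the subunit genes was asked by comparing RasV12-glands with w1118-glands. Of the 32 canonical genes, 10 were higher and 1 was lower at an adjusted p of at most 0.05 (quasi-likelihood F-test of edgeR, p-values adjusted by Benjamini and Hochberg over the genes tested), while 25.8% of all genes were higher and 23.1% were lower. The share of subunits called higher was thus near that of all genes, and the median log2 fold change was 0.07 against -0.001 for all genes. In the base 5 of 10 genes were higher, against 4 of 14 genes in the core and 1 of 8 in the lid. The log2 fold changes of the canonical subunits lay between -0.32 and 0.43, which was small next to the range over all genes, from -8.48 to 10.76.

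Rpt6, an ATPase of the base (arm X, 21316052 to 21317663 in the dm6 assembly, 3 annotated exons), had the largest rise, by 0.43 ± 0.10 (SE, n = 3 and 3, adjusted p = 0.0031). It was at 192, 215 and 204 CPM across w1118 replicates, 299, 262 and 262 CPM across RasV12 replicates, 276, 233 and 245 CPM across lglRNAi;RasV12 replicates and 184, 209.8 and 179.8 CPM across PP replicates. The replicates of both entire glands with RasV12 lay above all others, and those of w1118-glands and the PP overlapped. The exons of Rpt6 overlap those of CG1801, a gene with group means of at most 0.416 CPM.

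In the base, Rpn2, a scaffold of the regulatory particle, rose by 0.31 ± 0.09 (adjusted p = 0.0101), Rpn13 by 0.25 ± 0.08 (adjusted p = 0.0213) and Rpt5 by 0.24 ± 0.07 (adjusted p = 0.0173). Rpn2 was at 425, 457 and 433 CPM across w1118 replicates and at 558, 518 and 559.6 CPM across RasV12 replicates. The groups did not overlap. Rpn13 was at 138, 143 and 145 CPM across w1118 replicates and at 171, 163 and 171 CPM across RasV12 replicates. Rpt5 was at 173, 184 and 179 CPM and at 204, 206 and 225 CPM in the same groups. Both were higher in every RasV12-replicate. Exons of Rpt5 overlap those of Hrd3, which went the other way, from a mean of 190.0 to 109 CPM, and the protocol did not keep the strand.

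Of the core, Prosalpha5 rose by 0.28 ± 0.07 (adjusted p = 0.00454), from 112, 123 and 121 CPM to 142, 144 and 146 CPM. Prosbeta2 rose by 0.25 ± 0.08 (adjusted p = 0.0271) and Prosbeta6, a beta subunit without an active site, by 0.23 ± 0.07 (adjusted p = 0.0215). Of the catalytic subunits only Prosbeta2 passed the test. It was at 104, 126 and 115.3 CPM across w1118 replicates and at 139, 138 and 133 CPM across RasV12 replicates, without overlap. Prosbeta1 was at 112, 116 and 122 CPM across w1118 replicates and at 121, 111 and 111 CPM across RasV12 replicates. For Prosbeta5 these values were 155, 168 and 158 CPM and 164, 159 and 148 CPM. The groups overlapped for both.

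In the lid, Rpn9 rose by 0.34 ± 0.08 (adjusted p = 0.00498) and Rpn5 fell by 0.32 ± 0.08 (adjusted p = 0.0044). Rpn9 was at 92.8, 103 and 112 CPM across w1118 replicates and at 124, 129 and 136 CPM across RasV12 replicates. Its exons overlap those of CG10365, whose group mean was 11.6 CPM with w1118 and 31.1 CPM with RasV12. Rpn5 (arm 3R, 5789493 to 5791569, 4 annotated exons, no overlapping exon) was at 262, 285 and 289.8 CPM across w1118 replicates and at 214, 218 and 239 CPM across RasV12 replicates. Rpn5 was the only canonical gene called lower than in w1118-glands in all 3 other groups on the TMM scale, by 0.62 ± 0.08 in lglRNAi;RasV12-glands and by 0.72 ± 0.08 in the PP. On library totals its log2 fold change in RasV12-glands was 0.11.

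Without replicate 1 of the w1118-glands, replicate 1 of the RasV12-glands or replicate 3 of the RasV12-glands, 6 canonical genes were called higher in place of 10, and 1 lower each time. Leaving out replicate 1 of the RasV12-glands was the same as keeping only libraries with a common last number in their names, whose meaning is not stated.

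The question whether the knockdown of l(2)gl changes the subunits in glands with RasV12 was addressed by comparing the lglRNAi;RasV12-glands with the RasV12-glands. If the list of crosses holds, the reporter changed together with the knockdown, and both cannot be told apart. Here 23 of the 32 canonical genes were lower and none was higher, while 5.12% of all genes were lower and 7.18% were higher. At an unadjusted p under 0.05, edgeR gave 1 gene higher, and DESeq2 called 28 genes lower and 1 higher. Of the 32 fold changes, 31 were negative, and that of Prosalpha1 was positive. The median log2 fold change was -0.33 against 0.01 for all genes. The classes moved by similar amounts, with 9 of 14 core genes lower (median -0.34), 8 of 10 base genes (median -0.33) and 6 of 8 lid genes (median -0.32). The lglRNAi;RasV12-replicates lay below all RasV12-replicates for 30 of the 32 genes, as was the case for 17.8% of all genes tested.

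Of the 3 catalytic subunits, 1 passed the test. Prosbeta2 fell by 0.33 ± 0.08 (adjusted p = 0.0247), to 107, 108 and 111 CPM. Prosbeta5 was at 125, 132 and 140.5 CPM (-0.25 ± 0.08, adjusted p = 0.0763) and Prosbeta1 at 98.2, 107 and 99.0 CPM (-0.18 ± 0.08, adjusted p = 0.157). Their replicates were all below those of the RasV12-glands, and the test was not passed.

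Of the other beta subunits, Prosbeta7 fell by 0.44 ± 0.09 (adjusted p = 0.00929), from 148, 151 and 151 CPM to 110.3, 109 and 112 CPM. Prosbeta6 went from 135, 136 and 137 CPM to 114, 114 and 120.3 CPM and Prosbeta4 from 93.6, 86.1 and 98.3 CPM to 72.1, 78.2 and 76.1 CPM, with adjusted p-values of 0.0682 and 0.0631. In the alpha ring, Prosalpha5 fell by 0.43 ± 0.07 (adjusted p = 0.00266), to 107, 103 and 112 CPM. Prosalpha4 went from 173, 177 and 187 CPM to 131, 143 and 139.8 CPM (-0.38 ± 0.07) and Prosalpha2 from 197, 207 and 203 CPM to 159.5, 158 and 163 CPM (-0.34 ± 0.09). All 6 alpha subunits other than Prosalpha1 were called lower.

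Of the ATPases, Rpt5 fell by 0.42 ± 0.07 (adjusted p = 0.00473), to 159, 154 and 162 CPM. Rpt3 fell by 0.35 ± 0.09, from 171, 171 and 195 CPM to 132, 144 and 145 CPM. Rpt6 had a log2 fold change of -0.13 ± 0.10 (adjusted p = 0.427) and was the only canonical gene besides Prosalpha1 whose replicates were not all below those of the RasV12-glands. Among the other base genes, Rpn2 fell by 0.38 ± 0.09, to 429.9, 405 and 424 CPM. Rpn10, the ubiquitin receptor, fell by 0.27 ± 0.07, from 139, 141 and 142 CPM to 114, 117 and 119 CPM. Rpn13, the receptor at the tip of the base, was at 153, 146 and 142 CPM (-0.20 ± 0.08, adjusted p = 0.122).

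In the lid, Rpn9 fell by 0.36 ± 0.08, to 98.1, 98.6 and 107 CPM, and Rpn5 by 0.30 ± 0.08, to 174, 182 and 189 CPM. Rpn3 was at 203, 189 and 202 CPM across RasV12 replicates and 172, 171 and 174 CPM across lglRNAi;RasV12 replicates (-0.20 ± 0.07, adjusted p = 0.0911). Rpn11, the deubiquitinase of the lid, was chosen after its values were seen, and it fell by 0.40 ± 0.08 (adjusted p = 0.00742), from 159.7, 157 and 157 CPM to 122, 117 and 121 CPM.

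The count of calls rested on all libraries. It was 13 and 8 without replicates 2 and 3 of the RasV12-glands, 12, 8 and 10 without replicates 1, 2 and 3 of the lglRNAi;RasV12-glands, and 0 in the fit with the single RasV12-library that shares the number in its name with the lglRNAi;RasV12-libraries, whereas 31 of the 32 fold changes were negative each time. On library totals 14 genes were lower, and with limma on TPM 0 were lower and 1 was higher, again with 31 negative fold changes.

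Against w1118-glands, 19 canonical genes were lower in lglRNAi;RasV12-glands and 1, Rpt6, was higher, while 23.5% of all genes were lower and 28.2% were higher. The median log2 fold change was -0.24 against 0.02 for all genes. In the core 9 of 14 genes were lower, in the base 4 of 10 and in the lid 6 of 8. Rpt6 was higher by 0.31 ± 0.10 (adjusted p = 0.0202), and it was no longer called without replicate 1 or 3 of the w1118-glands or replicate 1 of the lglRNAi;RasV12-glands. With the replicate number as a block, 2 canonical genes were called higher, namely Rpt6 and Prosalpha1, and 17 lower. The direction of the median holds relative to all genes and not on library totals or TPM. The lglRNAi;RasV12- and w1118-libraries also share no number at the end of their names. What this number stands for and the genotype cannot be told apart in this comparison. If the list of crosses holds, the reporter changed with the genotype here, as it did between the PP and w1118- or RasV12-glands. The reporter and the genotype cannot then be told apart.

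The PP was compared with the entire glands of the same genotype to ask how the subunits differ between this part and the whole. The entire glands contain the PP, and no distal part was sequenced alone. No PP-library shares the number at the end of its name with a lglRNAi;RasV12-library. The meaning of this number is not stated, and what it stands for cannot be told apart from the part of the gland here. Of the canonical genes, 15 were lower in the PP and none was higher, while 17.7% of all genes were lower and 20.0% were higher. In edgeR 0 genes were higher also at an unadjusted p under 0.05, and DESeq2 called 0 higher and 19 lower. The median log2 fold change was -0.21 against 0.005 for all genes, and 31 of the 32 fold changes were negative. Base genes made up more than the other classes, with 8 of 10 called lower, against 4 of 14 in the core and 3 of 8 in the lid. Whether the classes differ from each other was not tested.

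All 4 base genes that are not ATPases were lower in the PP. Rpn13 fell by 0.34 ± 0.08 (adjusted p = 0.00579), to 113, 128 and 108 CPM, and Rpn2 by 0.25 ± 0.09 (adjusted p = 0.0422), to 360.0, 386 and 315 CPM. Rpn10 fell by 0.20 ± 0.07 (adjusted p = 0.0406), to 101, 104 and 98.2 CPM. Of the ATPases, Rpt6 fell by 0.39 ± 0.10 (adjusted p = 0.00821), the largest fall among them, and Rpt3 fell by 0.31 ± 0.09 (adjusted p = 0.0147), to 112, 118 and 111 CPM. Rpt5 was at 152, 159 and 144 CPM and overlapped with the entire glands (-0.06 ± 0.07, adjusted p = 0.535).

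In the core, Prosbeta6 fell by 0.31 ± 0.07 (adjusted p = 0.00707), to 93.0, 94.5 and 93.7 CPM, and Prosbeta5 by 0.23 ± 0.08 (adjusted p = 0.0475), to 108, 123 and 108 CPM. Prosbeta1 was at 87.3, 93.4 and 82.3 CPM (-0.21 ± 0.08, adjusted p = 0.0509), just outside the threshold, and Prosbeta2 at 97.1, 110.0 and 102 CPM (-0.08 ± 0.08, adjusted p = 0.486). Prosbeta4 was at 63.5, 65.1 and 69.8 CPM (-0.19 ± 0.09, adjusted p = 0.131), below all replicates of the entire glands. Prosbeta7 was at 109.5, 120.0 and 101 CPM and Prosalpha4 at 138, 141 and 142 CPM, with log2 fold changes of -0.002 and 0.02. Prosalpha2 and Prosalpha5 were at 147, 150.2 and 129.7 CPM and at 98.7, 98.0 and 97.1 CPM, with adjusted p-values of 0.153 and 0.145. The only alpha subunit called was Prosalpha7, named after its values were seen, which fell by 0.38 ± 0.08 (adjusted p = 0.00306).

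Of the lid genes, Rpn3 fell by 0.27 ± 0.07 (adjusted p = 0.0123), to 136, 149.8 and 144 CPM. Rpn9 was at 96.5, 99.4 and 99.5 CPM (-0.04 ± 0.08, adjusted p = 0.741) and Rpn5 at 169, 167 and 171 CPM (-0.10 ± 0.08, adjusted p = 0.303). CG10365, whose exons overlap those of Rpn9, had its highest group mean in the PP, with 67.6 CPM. The count of 15 genes fell to 7 and 6 without replicates 2 and 3 of the entire glands, and to 8 and 7 without replicates 1 and 3 of the PP, while at most 3 of the 32 fold changes were positive.

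Between the PP and the entire RasV12-glands, 31 of the 32 canonical genes were lower, that is every one except Prosalpha1, while 17.1% of all genes were lower and 20.4% were higher, and no canonical gene was higher. This count was 0 also at an unadjusted p under 0.05 in edgeR and in DESeq2. The median log2 fold change was -0.51 against 0.02 for all genes, and the called genes ranged from -0.71 for Prosalpha7 to -0.35 for Prosalpha4. All 31 genes were lower in every PP-replicate than in every RasV12-replicate, which was so for 24.7% of all genes. The catalytic subunits Prosbeta1, Prosbeta2 and Prosbeta5 had log2 fold changes of -0.39 ± 0.08, -0.41 ± 0.08 and -0.47 ± 0.08. The count was 31 in every fit that left out a replicate, and 20 in the fit with the single PP-library that shares the number in its name with RasV12-libraries.

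Against w1118-glands, 27 canonical genes were lower in the PP and none was higher, while 25.2% of all genes were lower and 33.5% were higher. The count of higher genes was 0 also at an unadjusted p under 0.05 in edgeR and in DESeq2. At the median the log2 fold change was -0.42 against 0.10 for all genes. The 5 genes not called were Prosalpha1, Prosalpha6, Prosbeta2, Rpn9 and Rpt6. These counts share the w1118-libraries with those of the other groups, and on library totals only 2 of the 32 genes were lower and 4 were higher.

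**Figure D4:**
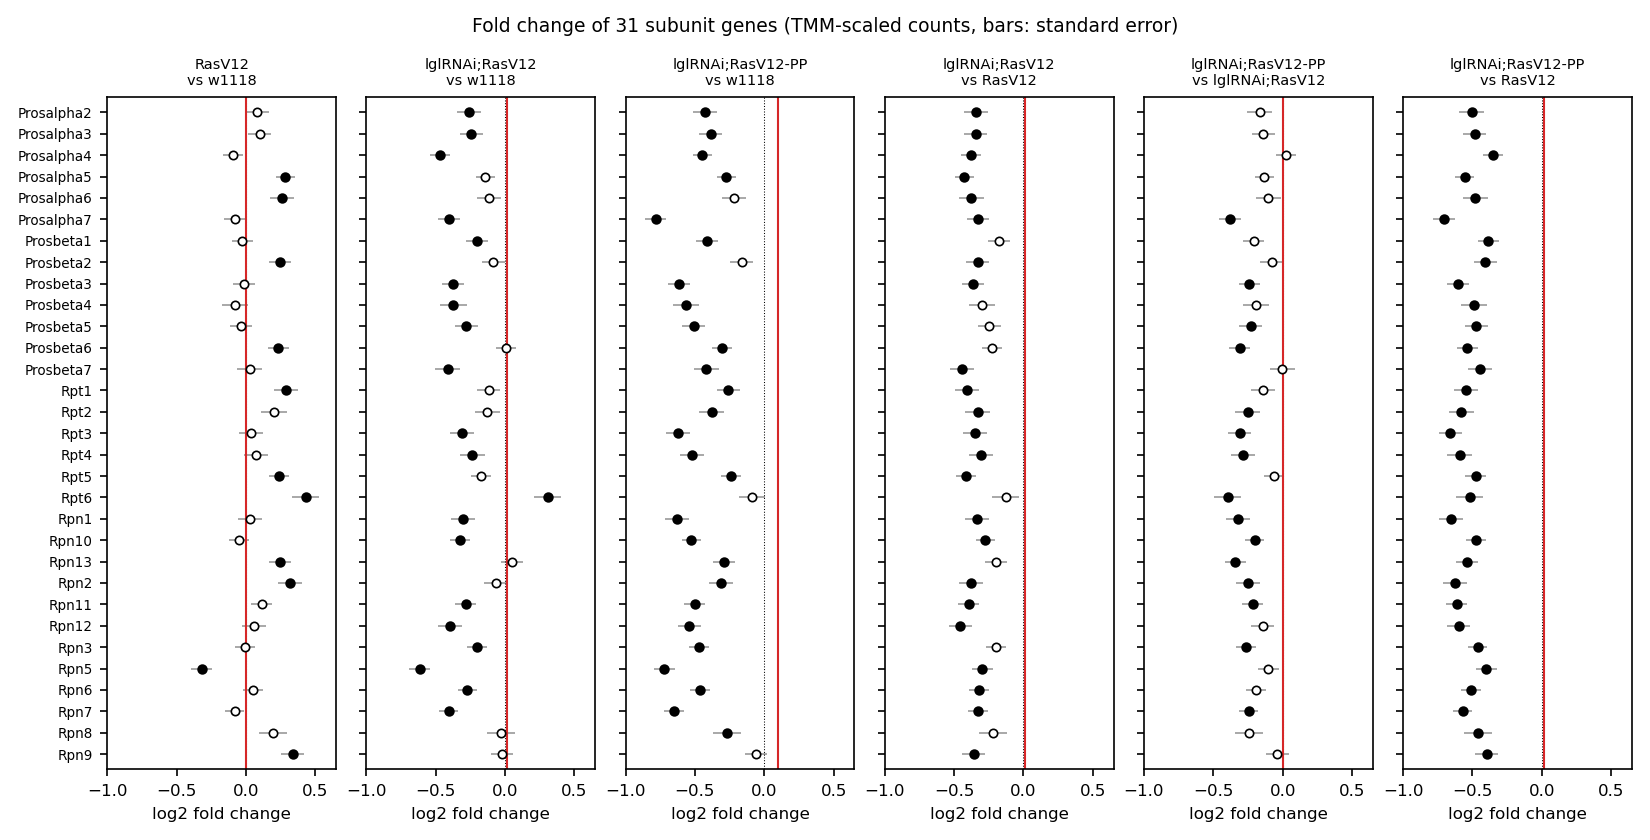
Log2 fold change (x axis) of 31 canonical subunit genes (y axis) in the 6 comparisons, with SE as bars; filled points passed an adjusted p of 0.05, and the red line is the median of all genes. Nearly all points lie left of the red line in the 5 comparisons other than RasV12 vs w1118, and in the last panel all 31 are filled.

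The genes Prosalpha1 and Prosalpha1R are described apart. They lie on arm 2R in the same orientation, at 7827303 to 7828678 and at 7830413 to 7831771, each with 5 annotated exons, and are near-identical copies, so that the split of reads between them is uncertain. The share of the reads of the pair given to Prosalpha1 was between 3.06% and 23.1% in the 12 libraries. Prosalpha1 was at 23.5, 7.27 and 24.2 CPM across w1118 replicates, 26.5, 7.96 and 9.3 CPM across RasV12 replicates, 40.6, 40.4 and 41.7 CPM across lglRNAi;RasV12 replicates and 21.8, 16.6 and 31.004 CPM across PP replicates. It was called in no comparison of the TMM-scaled edgeR fit over all 12 libraries without a block, with an SE of 0.47 to 0.48. With only both groups in the fit, it was higher in lglRNAi;RasV12-glands than in w1118-glands by 1.14 (adjusted p = 0.0421). In such a fit it was also lower in the PP than in lglRNAi;RasV12-glands (log2 fold change -0.82, adjusted p = 0.02). With the replicate number as a block, it was higher in lglRNAi;RasV12-glands than in w1118-glands by 1.33 (adjusted p = 0.0174) and than in RasV12-glands by 1.65 (adjusted p = 0.0251). Without replicate 1 of the RasV12-glands, it was higher than in RasV12-glands by 2.24 in lglRNAi;RasV12-glands (adjusted p = 0.0145) and by 1.42 in the PP (adjusted p = 0.0313). DESeq2 and TPM called it higher in lglRNAi;RasV12- than in RasV12-glands. TPM and library totals, with or without the gland and fat body markers, called it higher in lglRNAi;RasV12- than in w1118-glands.

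Prosalpha1R took most of the reads, with 170.0, 231 and 200.02 CPM across w1118 replicates, 96.2, 115.1 and 119 CPM across RasV12 replicates, 135, 151 and 148 CPM across lglRNAi;RasV12 replicates and 154, 164 and 155 CPM across PP replicates. It was lowest in the group in which the other subunits were highest. Compared with w1118-glands it fell by 0.87 ± 0.12 in RasV12-glands (adjusted p = 8.62e-05), and on the TMM scale it also fell, as most subunits did, by 0.47 ± 0.12 with lglRNAi;RasV12 (adjusted p = 0.00529) and by 0.35 ± 0.12 in the PP (adjusted p = 0.0228), where TPM gave positive values for both and library totals for the PP. Compared with RasV12-glands it was higher by 0.40 ± 0.12 in lglRNAi;RasV12-glands (adjusted p = 0.0452) and by 0.52 ± 0.12 in the PP (adjusted p = 0.00471).

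The sum of both genes does not depend on the split and was computed after the values had been seen. It was 193, 238 and 224 CPM across w1118 replicates, 123, 123 and 128 CPM across RasV12 replicates, 176, 192 and 189.9 CPM across lglRNAi;RasV12 replicates and 176, 181 and 186 CPM across PP replicates. The RasV12-replicates lay below all others. Compared with w1118-glands the sum fell by 0.81 ± 0.09 in RasV12-glands (adjusted p = 1.41e-05). On the TMM scale, the only one on which the sum was fitted, it fell by 0.23 ± 0.09 with lglRNAi;RasV12 (adjusted p = 0.0366) and fell by 0.27 ± 0.09 in the PP (adjusted p = 0.0157). It was higher in lglRNAi;RasV12-glands than in RasV12-glands by 0.58 ± 0.09 (adjusted p = 0.00183). Between the PP and the lglRNAi;RasV12-glands it differed by -0.04 ± 0.09 (adjusted p = 0.747).

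Both genes that interleave with the pair on the opposite strand were nearly absent from the same group. phr, which encodes a DNA photolyase and overlaps the end of Prosalpha1, was at 7.14, 9.14 and 10.5 CPM across w1118 replicates, 0.187, 0.389 and 0.301 CPM across RasV12 replicates, 13.2, 11.8 and 12.5 CPM across lglRNAi;RasV12 replicates and 13.8, 14.2 and 12.6 CPM across PP replicates. CG18853, which lies between the copies and overlaps Prosalpha1R, was at 12.0, 11.1 and 10.7 CPM across w1118 replicates and at 0.053, 0.0 and 0.574 CPM across RasV12 replicates. It was at 13.2, 13.0 and 13.4 CPM across lglRNAi;RasV12 replicates and at 29.1, 34.4 and 25.6 CPM across PP replicates. Compared with w1118-glands, phr fell by 4.92 ± 0.22 in RasV12-glands (adjusted p = 4.67e-08). For CG18853, with a library at 0, no fold change is given. phr ends at 7827319 and CG18853 at 7830429, so that each overlaps a gene of the pair at the same end. Whether phr and CG18853 are also copies of each other, with an uncertain split of reads, was not tested. Their patterns may therefore not be separate.

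The nearest tested genes outside did not share this pattern. cathD, on the side of phr, was at 74.3, 81.1 and 63.3 CPM across w1118 replicates and at 199.7, 165 and 141 CPM across RasV12 replicates. CG12822, on the side of Prosalpha1R, was at 21.4, 18.7 and 18.6 CPM and at 24.2, 22.9 and 21.6 CPM. Atg10, which starts at the same position, rose by 0.57 ± 0.16 in RasV12-glands (adjusted p = 0.013). The only genes tested between cathD and CG12822 were phr, CG18853 and the pair. Of these, phr, CG18853 and Prosalpha1R were lower in every RasV12-replicate than in every w1118-replicate, as was the sum of the pair. Prosalpha1 alone overlapped.

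**Figure D5:**
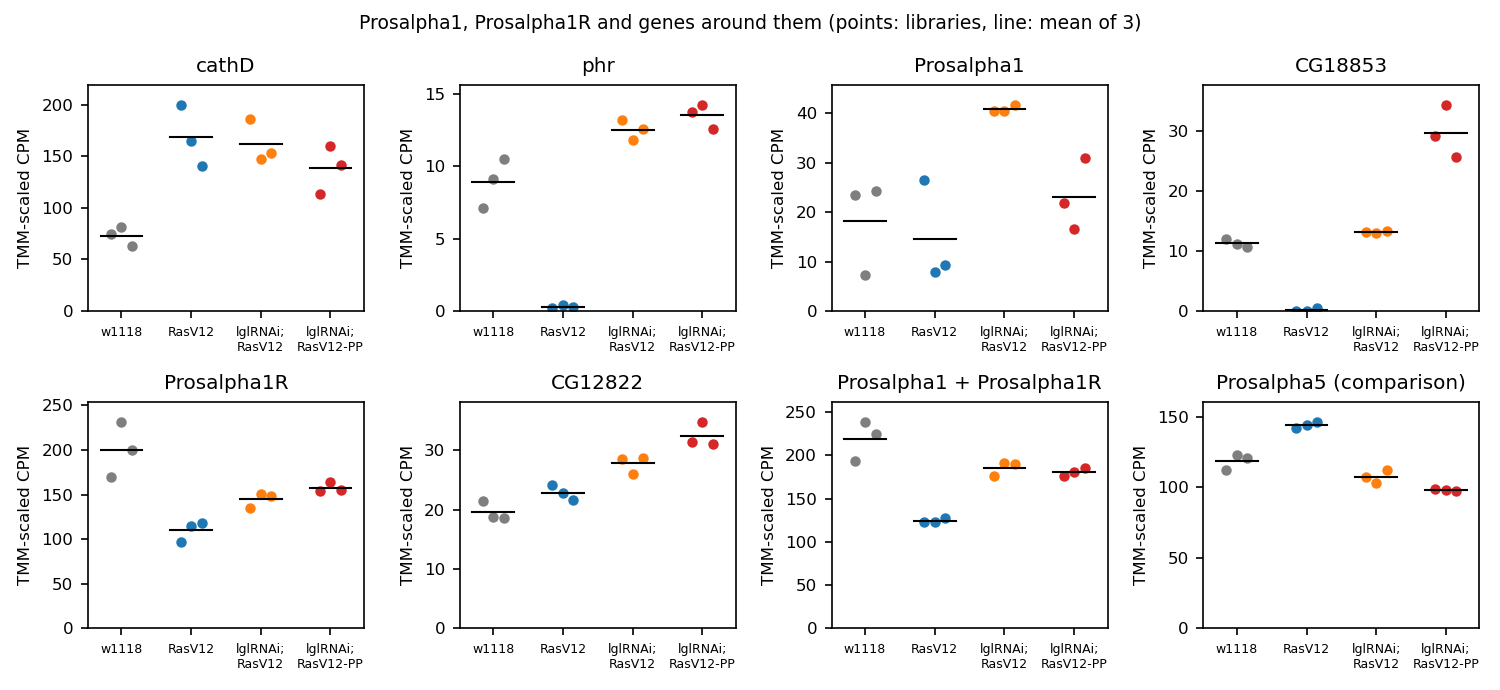
TMM-scaled CPM (y axis) in the 4 groups (x axis) of Prosalpha1, Prosalpha1R, their sum, the interleaved genes phr and CG18853 and the outer genes cathD and CG12822, with Prosalpha5 for comparison; points are libraries and lines means of 3. phr and CG18853 are near 0 only in RasV12-glands, where the sum of the pair is between 123 and 128 CPM and below all other libraries.

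Of the other 15 paralogs, 6 had no count in any library (Prosalpha3T, Prosalpha4T1, Prosalpha6T, Prosbeta4R2, Prosbeta5R1 and Rpn12R), and 11 were at or below 3 counts, the floor taken for detection, in every library. The floor lay between 0.0397 and 0.144 CPM over the libraries and covers counting error only. Rpt6R was an exception, with 2, 2 and 7 counts across w1118 replicates, 40, 50 and 37 counts in RasV12-glands, 15, 15 and 20 counts in lglRNAi;RasV12-glands and 11, 76 and 33 counts in the PP. All RasV12-replicates were above 1 CPM, and the w1118-replicates were between 0.068 and 0.305 CPM. Rpt6R passed the filter on low counts only through the groups with RasV12, and the w1118-replicates were near the floor, so that no fold change against w1118-glands is given. Even so, Rpt6R had 0.911 TPM in RasV12-glands, while Rpt6 had 231 TPM.

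Rpt3R had between 12 and 31 counts in a library and fell by 0.84 ± 0.32 in the PP compared with w1118-glands (adjusted p = 0.0384). Its exons overlap those of Alg12, with group means of 54.2 to 96.1 CPM. Alg12 fell by 0.83 ± 0.11 in the same comparison (adjusted p = 5.82e-05), and its part in the reads of Rpt3R was not tested. Rpn13R had between 2 and 13 counts and Prosbeta2R2 between 1 and 12.

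Genes that act with the proteasome were described from a list of 9 tested regulators and assembly factors. Compared with w1118-glands, 1 was higher and 2 were lower in RasV12-glands, next to 25.8% and 23.1% of all genes. Furthermore, none was higher and 3 were lower in lglRNAi;RasV12-glands than in RasV12-glands (7.18% and 5.12% of all genes), and none was higher and 5 were lower in the PP than in RasV12-glands (20.4% and 17.1% of all genes). At an unadjusted p under 0.05, edgeR gave 2 and 1 higher in these 2 comparisons, and DESeq2 called 0 higher. The medians of the list were 0.07, -0.30 and -0.40, next to 0.07, -0.33 and -0.51 for the canonical subunits. Between the PP and the entire lglRNAi;RasV12-glands the list went both ways, with 2 genes higher and 2 lower (median -0.12). Of the canonical subunits, 0 were higher and 15 lower at this step (median -0.21). Compared with w1118-glands, 2 regulators were higher and 3 lower with lglRNAi;RasV12 (median -0.15). For the PP, 1 was higher and 4 were lower (median -0.22). Sem1, a small lid component whose symbol is outside the rule for members, and Uch-L5, a deubiquitinase that binds Rpn13, were chosen after their values were seen. Sem1 was at 62.5, 88.2 and 81.5 CPM across RasV12 replicates and at 49.5, 50.1 and 52.0 CPM across lglRNAi;RasV12 replicates, and fell by 0.62 ± 0.14 (adjusted p = 0.0177). Uch-L5 was at 61.9, 65.2 and 71.0 CPM across RasV12 replicates, 48.6, 54.5 and 53.1 CPM across lglRNAi;RasV12 replicates and 39.7, 38.3 and 32.2 CPM across PP replicates. It fell at both steps, by 0.34 ± 0.10 (adjusted p = 0.0468) and by 0.50 ± 0.10 (adjusted p = 0.00278). The largest change of the list was that of ntc, an F-box protein that acts with the proteasome regulator PI31 in sperm, with 1.15, 0.952 and 1.09 CPM across w1118 replicates, 4.43, 3.6 and 4.70 CPM across RasV12 replicates, 3.71, 2.79 and 2.86 CPM across lglRNAi;RasV12 replicates and 5.33, 5.71 and 5.23 CPM across PP replicates. All w1118-replicates were below those of the other groups.

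The ubiquitin pathway was a list of 17 tested genes, among them ubiquitin itself, its activating enzyme and conjugating enzymes. Of these, 10, 10 and 8 were higher and 1, 2 and 2 were lower in RasV12-glands, lglRNAi;RasV12-glands and the PP than in w1118-glands, with medians of 0.37, 0.38 and 0.22. Of all genes, 25.8%, 28.2% and 33.5% were higher and 23.1%, 23.5% and 25.2% were lower. No gene of the list was called in either direction between lglRNAi;RasV12- and RasV12-glands, where the median was -0.02. In edgeR 3 of its genes were lower and none was higher at an unadjusted p under 0.05, and DESeq2 called 2 lower. Uch, a ubiquitin hydrolase chosen after its values were seen, was at 80.7, 87.7 and 89.2 CPM across w1118 replicates and at 206, 199.9 and 187 CPM across RasV12 replicates, a rise of 1.2 ± 0.09 (adjusted p = 1.02e-06). It was at 184, 179 and 193 CPM across lglRNAi;RasV12 replicates and at 161, 193 and 169 CPM across PP replicates. Uba1, the ubiquitin-activating enzyme, was also chosen in this way and was higher than in w1118-glands by 0.52 ± 0.12, 0.49 ± 0.12 and 0.96 ± 0.12 in the 3 groups. The polyubiquitin genes Ubi-p63E and Ubi-p5E hold near-identical repeats, so that their counts are uncertain.

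The last list held 13 tested genes around Cnc, the fly counterpart of a family of transcription factors that induce antioxidant genes and, in flies, proteasome genes. Of these, 6, 8 and 6 were higher and 3, 1 and 3 were lower in the 3 groups than in w1118-glands, next to the same shares of all genes. cnc itself was higher by 0.59 ± 0.19, 0.82 ± 0.19 and 0.57 ± 0.19 (adjusted p = 0.0213, 0.0034 and 0.0214). GstD2, a glutathione transferase, had the largest change of all lists, from 3.5, 7.61 and 7.18 CPM across w1118 replicates to 174, 188 and 171 CPM across RasV12 replicates, 100.1, 70.7 and 76.6 CPM across lglRNAi;RasV12 replicates and 178, 310.2 and 162 CPM across PP replicates. The replicates with RasV12 were all far above those of w1118-glands. GstE1, another glutathione transferase, was at 42.2, 37.0 and 33.8 CPM, 231, 249 and 202 CPM, 135, 157 and 143 CPM and 127, 85.2 and 102 CPM in the same order. By group means, GstE1 was highest in RasV12-glands, cnc in lglRNAi;RasV12-glands and GstD2 in the PP.

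The subunits of glutamate-cysteine ligase, the enzyme that starts glutathione synthesis, went apart between the entire lglRNAi;RasV12-glands and the PP. The number in the names and the fat body markers also differed between these groups, and their part was not tested. Gclm, the modifier subunit, was at 127, 124 and 151 CPM across lglRNAi;RasV12 replicates and at 68.7, 40.8 and 38.8 CPM across PP replicates, and fell by 1.44 ± 0.19 (adjusted p = 0.000199). Gclc, the catalytic subunit, was at 155, 150.5 and 129 CPM and at 186, 290.2 and 279 CPM, a rise of 0.80 ± 0.17 (adjusted p = 0.00353). Men, a malic enzyme, was at 96.9, 31.3 and 26.1 CPM and at 18.8, 19.8 and 12.6 CPM, and fell by 1.59 ± 0.45 (adjusted p = 0.017), with replicate 1 of the entire glands far above the others. In w1118-glands the group means of Gclm, Gclc and Men were 44.8, 69.3 and 52.0 CPM. In RasV12-glands they were 148, 91.9 and 30.1 CPM.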

How the data were processed

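Members, gene lists and the rule for named genes were chosen with earlier results of these data known. The authors pseudoaligned the reads with kallisto 0.44.0 to transcripts of release r6.19 and deposited estimated counts per transcript, which are not normalized, and TPM. Of 30503 transcripts, 30279 were matched to genes of an Ensembl annotation of the same assembly (dm6), and counts and TPM were summed per gene and counts were rounded. The 224 transcripts without a gene held at most 0.359% of the counts.

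Genes were filtered with edgeR 4.0.16 (minimum count 10), normalized by TMM, and 9012 genes were tested in R 4.3.3 with the quasi-likelihood test over all 12 libraries, with Benjamini-Hochberg adjustment in each of 6 comparisons. A gene was called at an adjusted p of at most 0.05. CPM values are TMM-scaled, and SE comes from the test statistic. Replicates are pools of glands described as biological replicates. An exact permutation test of 3 against 3 libraries cannot go below p = 0.1, and none is given. A count of 3 was taken as the detection floor. The test was tried on simulated counts.

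Named members were the catalytic subunits, those with the highest and lowest fold change of each class in RasV12 vs w1118 and in the PP vs lglRNAi;RasV12, those with the highest and lowest TPM, paralogs of at least 1 CPM, members against the prevailing direction, and the 6 list genes with the largest changes against w1118.

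Alternatives were DESeq2 1.42.0, library totals, no filter, limma 3.58.1 on log2(TPM + 1), fits of both groups only, each replicate left out, the replicate number as a block, and libraries sharing a number in their names. Deviations from the group mean were compared between libraries with the same replicate number. Their r was 0.119 to 0.211 between w1118- and RasV12-glands and 0.177 to 0.218 between w1118- and lglRNAi;RasV12-glands. Other pairs of groups had values from -0.321 to 0.332. Libraries with different numbers were not compared, so that these values cannot show a pairing. The main test did not use the replicate number, which entered only as the block. Promoter motifs were not run, and no sequences were used here. A result on 1 further gene is not reported here.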

Additional observations from a re-analysis of the deposited data

How the results depend on the processing

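Counts here are over the 36 members tested, and medians over the 32 canonical genes. With library totals in place of TMM, 31, 13 and 5 members were higher and 1, 0 and 2 lower than in w1118-glands in RasV12-glands, lglRNAi;RasV12-glands and the PP (medians 0.49, 0.17 and 0.036), 0 were higher and 14 lower in lglRNAi;RasV12- than in RasV12-glands, and 4 were lower in the PP than in lglRNAi;RasV12-glands. With limma on log2(TPM + 1), 32, 32 and 9 were higher and 0 in each case lower than in w1118-glands (medians 0.75, 0.51 and 0.15). There, 1 was lower in lglRNAi;RasV12- than in RasV12-glands (median -0.25), 23 were lower in the PP than in lglRNAi;RasV12-glands (median -0.40), and 0 were higher in the PP than in RasV12-glands (median -0.63). With the library total taken without gland and fat body markers, chosen after seeing the data, the medians against w1118-glands were 0.15 for RasV12-glands and -0.16 for lglRNAi;RasV12-glands, with 3 members higher and 13 lower in the latter, and 0 were higher in lglRNAi;RasV12- than in RasV12-glands. The cause of these shifts was not tested.

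With libraries that share a number in their names, 7 members were higher in RasV12-glands and 0 in the PP than in w1118-glands, 0 were higher and 0 lower in lglRNAi;RasV12- than in RasV12-glands (fewer libraries), and 0 were higher and 20 lower in the PP than in RasV12-glands. Without the filter, 0 were higher in lglRNAi;RasV12- than in RasV12-glands and 7 lower in the PP than in lglRNAi;RasV12-glands, and with only both groups in the fit 9 were lower in the latter. DESeq2 called 2 higher in lglRNAi;RasV12- than in RasV12-glands.

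With the replicate block, 3 members were higher in lglRNAi;RasV12-glands than in w1118-glands, 2 were higher in lglRNAi;RasV12- than in RasV12-glands, and 10 were lower in the PP than in lglRNAi;RasV12-glands. In the comparison of RasV12-glands with w1118-glands the block gave 11 higher and 2 lower, as without it.

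When 1 replicate was left out, between 7 and 11 members were higher in RasV12-glands and between 0 and 1 in lglRNAi;RasV12-glands than in w1118-glands. Between 8 and 16 were lower and between 0 and 1 higher in lglRNAi;RasV12- than in RasV12-glands, between 6 and 18 were lower in the PP than in lglRNAi;RasV12-glands, and between 1 and 2 were higher in the PP than in RasV12-glands.

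Of the named genes, Rpn5 reversed against w1118-glands, to 0.11 (library totals) and 0.36 (TPM) in RasV12-glands and to 0.14 (TPM) in lglRNAi;RasV12-glands. Prosalpha1R reversed to 0.30 (TPM) in lglRNAi;RasV12-glands and to 0.11 (library totals) and 0.24 (TPM) in the PP. Prosalpha1 in lglRNAi;RasV12-glands was -0.23 when summed with its copy. Of the other values of single genes, 955 kept direction and side of the threshold, 146 lost the call and 33 gained it.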
